A study of Mus musculus with 12 samples.

Results

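RAW264.7, a cell line of mouse macrophages, was compared after growth in medium from JMJD6-knockout PyMT-41C cells and in medium from SCR PyMT-41C cells. These comprised 6 of the 12 arrays of the series, chosen by the medium named in the sample titles: KO replicates 1, 2 and 3 and SCR replicates 1, 3 and 4. Both groups were grown for 24 h in a mix of which 50% was conditioned medium, with no CSH. PyMT is the polyoma middle T oncogene, used to drive mammary tumours in mice. The labels neither spell out SCR nor say whether the knockout line was 1 clone. JMJD6 was removed from the cells that made the medium and not from the cells measured, so the Jmjd6 level here checks no label. It lay at 9.75, 9.87 and 9.90 in SCR medium and at 9.98, 10.12 and 9.54 in KO medium, and the groups overlapped. The other groups, used only to place the genes, were 3 arrays in normal medium and 3 in SCR medium with CSH, which per the labels blocks the receptor of annexin A1. The labels name no group with CSH in normal medium and none with a vehicle.

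JMJD6 is an oxygenase of the JmjC family that hydroxylates lysines of nuclear proteins. Tumour cells act on macrophages through what they release, including cytokines, growth factors, prostaglandins and metabolites. Macrophages respond through pathways that include cAMP and the transcription factor CREB, MAP kinases and AP-1, and cytokine receptors that signal through STAT proteins. Arginase, growth factors and the urokinase receptor are among the products for which tumour-associated macrophages are known.

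Levels are log2 RMA signals, for which a difference of 1 is a 2-fold change. A gene is said to have risen or fallen where limma gave a Benjamini-Hochberg adjusted p below 0.05 over the 18122 genes tested. No label states that the replicates of a group came from separate cultures. The p-values therefore reflect how far these samples differ from each other, which can be technical variation. Array medians lay between 5.40 and 5.52, 0 of 66 pairs of arrays held identical values, and the number of arrays limits the precision. The macrophage genes Lyz2 (17.64 to 17.87), Cd68 (16.92 to 17.21), Csf1r (11.61 to 13.83) and Adgre1 (9.56 to 11.29) were well expressed over the 12 arrays. The epithelial genes Epcam, Krt18, Krt19 and Cdh1 lay between 4.31 and 5.03, below the filter on low values, and Krt8 reached 5.64.

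In KO medium 46 genes rose and 3 fell against SCR medium, which is 0.254% and 0.0166% of the genes tested and 0.27% together. The rises were led by the genes of the urokinase receptor Plaur, the oxysterol-binding protein Osbp2, the neutrophil chemokine Cxcl2, podoplanin (Pdpn) and arginase (Arg1). The falls were Cd180, Usp18 and Rilpl2. Rises ran from 0.30 to 1.42 with a median of 0.61, and 8 were at least 2-fold. Over all genes tested the median difference was -0.003, 48.5% of genes were above 0, and the 5th and 95th percentiles were -0.16 and 0.17. Before adjustment 1078 genes (5.95%) had p below 0.05, 628 higher and 450 lower. For 1698 genes (9.37%) every array of one group lay beyond every array of the other. In bulk RNA a change in the number of cells of one kind and a change of RNA per cell cannot be told apart.

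**Figure D1:**
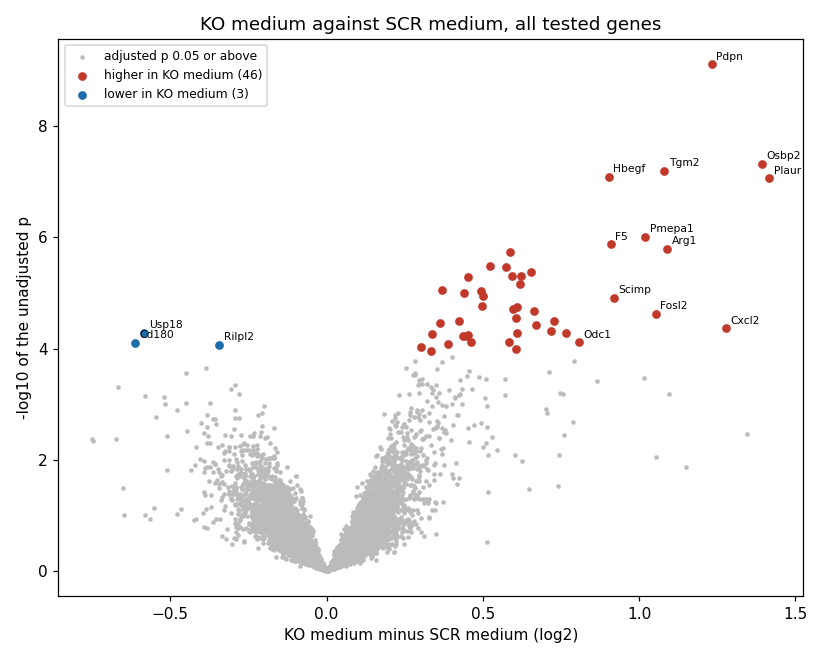
Difference between KO and SCR medium (log2, horizontal) against -log10 of the unadjusted limma p (vertical) for the 18122 genes tested. The 46 rises are red and the 3 falls blue, Pdpn has the smallest p, and the 12 largest named rises and the falls are labelled.

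The number of calls depended on single arrays. Without 1 array of the KO or SCR group, 19 to 34 of the 49 calls were kept: 19 without KO replicate 1, 34 without KO replicate 2, 19 without KO replicate 3, 24 without SCR replicate 1, 20 without SCR replicate 3 and 23 without SCR replicate 4. Without 1 array of the other groups, 41 to 45 were kept. The 16 calls kept in all 12 of these fits were Pdpn, Osbp2, Tgm2, Hbegf, Plaur, Pmepa1, F5, Arg1, Plekhn1, Pde8a, Lif, Dusp1, Lims2, Pmp22, Il4ra and 1 predicted gene. For every other gene the largest adjusted p with 1 array left out is given beside its value. Among the KO arrays, replicate 3 was the highest for 26 of the 46 rises, replicate 1 for 12 and replicate 2 for 8.

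Plaur, the receptor that holds urokinase at the cell surface (GRCm38.p6, chromosome 7, 24460937 to 24475970), measured 12.52, 12.55 and 12.64 in SCR medium and 13.86, 13.89 and 14.21 in KO medium. Every KO array lay above every SCR array. The mean rose from 12.57 ± 0.06 to 13.99 ± 0.19 (SD, n = 3), a change of 1.42 (SE 0.13, limma adjusted p = 0.000311). F5, coagulation factor V, measured 10.52, 10.11 and 10.42 in SCR medium and 11.22, 11.11 and 11.45 in KO medium. It rose by 0.91 (SE 0.11, adjusted p = 0.00342), and the groups did not overlap. Of 12 tested genes of the urokinase receptor, coagulation and fibrinolysis list, these 2 rose, none fell and the median was 0.07. Plau, urokinase itself, was 12.98 ± 0.18 in SCR medium and 12.81 ± 0.23 in KO medium (adjusted p = 0.995). Thbd and Procr, receptors of the anticoagulant protein C pathway, differed by 0.25 and 0.24 and did not pass.

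Pdpn, the mucin-like membrane glycoprotein podoplanin (chromosome 4, 143267409 to 143299564), had the smallest p of all genes. Its arrays read 7.68, 7.92 and 7.95 in SCR medium and 9.02, 9.12 and 9.11 in KO medium. The KO arrays lay close together and more than 1 above the highest SCR array. The rise was 1.23 (SE 0.08, adjusted p = 1.37e-05). With 1 array left out the adjusted p stayed between 2.84e-05 and 0.000223. The myeloid C-type lectins on the same list did not pass (15 tested, 1 rise, median 0.12), among them Clec10a at 0.22 and Clec4d at 0.32.

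Osbp2, a lipid-binding protein of the oxysterol-binding family (chromosome 11, 3703731 to 3863999), measured 10.17, 9.89 and 9.97 in SCR medium and 11.46, 11.19 and 11.56 in KO medium. It rose by 1.39 (SE 0.12, adjusted p = 0.000311), 2.63-fold, with no overlap of arrays. It was the only one of 9 tested members of its family that rose. The next by p, Osbpl2, differed by 0.24 (adjusted p = 0.346), and the family median was 0.08.

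Arg1, which splits arginine into ornithine and urea (chromosome 10, 24915207 to 24927470), measured 6.63, 6.98 and 7.13 in SCR medium and 7.79, 8.08 and 8.14 in KO medium. It rose by 1.09 (SE 0.13, adjusted p = 0.00361), and the lowest KO array stood above the highest SCR array. Odc1, ornithine decarboxylase, which makes putrescine from ornithine, measured 13.14, 13.09 and 12.92 against 13.87, 13.49 and 14.21. It rose by 0.81 (SE 0.14, adjusted p = 0.0323), but KO replicates 2 and 3 were far apart. The Odc1 call was lost without any 1 of 9 arrays (adjusted p up to 0.162), the exceptions being normal replicates 3 and 4 and KO replicate 2. Smox, spermine oxidase, rose by 0.36 (SE 0.06, adjusted p = 0.0207, up to 0.128 with 1 array left out). These were 3 of the 13 tested arginine and polyamine genes (23.1%), none fell, and the median was 0.07, beside 0.254% of all genes tested that rose. That list, too, was chosen with earlier results of these data known, so its share is no test. Nos2, the other enzyme that uses arginine in macrophages, was 8.75 ± 0.23 in SCR medium and 8.82 ± 0.29 in KO medium, with overlapping arrays.

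Tgm2, transglutaminase 2, which crosslinks proteins (chromosome 2, 158116405 to 158146392), measured 10.01, 10.08 and 10.16 in SCR medium and 11.13, 11 and 11.36 in KO medium. It rose by 1.08 (SE 0.10, adjusted p = 0.000311) with no overlap. Hbegf, a growth factor for the EGF receptor, measured 6.48, 6.55 and 6.62 against 7.27, 7.48 and 7.61 and rose by 0.90 (SE 0.08, adjusted p = 0.000311). The KO arrays of Hbegf again lay above all SCR arrays. Il4ra, the receptor chain through which IL-4 and IL-13 signal, rose from 10.35 ± 0.14 to 10.97 ± 0.09 (n = 3), a change of 0.62 (SE 0.08, adjusted p = 0.0079). With Arg1 these were 4 rises among 15 tested markers of alternative activation (26.7%), with none lower and a median of 0.15. The same 4 passed in all 12 fits with 1 array left out. Over all genes tested 0.254% rose, and this list was chosen with earlier results of these data known. Clec10a, next by p, did not pass (adjusted p = 0.215). The alternative markers Mrc1 and Chil3 lay below the filter, at 5.0 and 4.35 in SCR medium and 5.01 and 4.38 in KO medium.

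Among 15 tested markers of classical activation, 1 rose and the median was 0.19. It was Il23a, a subunit of the cytokine IL-23, which went from 7.96 ± 0.22 to 8.69 ± 0.12 (change 0.73, SE 0.12, adjusted p = 0.0201). Its adjusted p reached 0.118 with 1 array left out, and the call was lost without SCR replicate 3 or 4 or KO replicate 1 or 3. Il6 measured 6.23, 5.92 and 5.82 in SCR medium and 6.88, 6.25 and 8.0 in KO medium. Its difference of 1.05 (SE 0.34, adjusted p = 0.502) did not pass, and KO replicate 3 was its highest array by far. Tnf differed by 0.11 and Cd86 by 0.08, both with overlapping arrays and adjusted p = 0.995. Cd80, a costimulatory ligand, differed by 0.41 (adjusted p = 0.137) and Tlr4, the receptor of endotoxin, by 0.43 (adjusted p = 0.168).

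Of 14 tested cytokine ligands, Lif and Il23a rose, none fell and the median was 0.19. Lif, a cytokine of the IL-6 family, measured 6.44, 6.63 and 6.61 in SCR medium and 7.27, 7.09 and 7.04 in KO medium. The groups were apart, and Lif rose by 0.57 (SE 0.07, adjusted p = 0.00565). Osm, a cytokine of the same family, differed by 0.43 (adjusted p = 0.119), and Tgfb1 by 0.22. Il1b and Il10 lay below the filter, at 5.09 and 5.09 in SCR medium and 5.27 and 5.20 in KO medium. In the chemokine list 1 of 14 tested genes rose, with a median of 0.15. Cxcl2, a neutrophil chemokine, measured 11.19, 11.22 and 11.37 in SCR medium and 12.18, 12.29 and 13.14 in KO medium. It rose by 1.28 (SE 0.21, adjusted p = 0.0247), and KO replicate 3 was the highest array. The Cxcl2 call was lost without any of the SCR arrays (adjusted p up to 0.127). Ccl2, the monocyte chemokine, measured 7.48, 7.75 and 7.77 against 8.25, 8.19 and 8.70 and did not pass (0.71, adjusted p = 0.0813). Ccl9 differed by 0.70 (adjusted p = 0.192) and Cxcl14 by 0.45 (adjusted p = 0.0887).

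**Figure D2:**
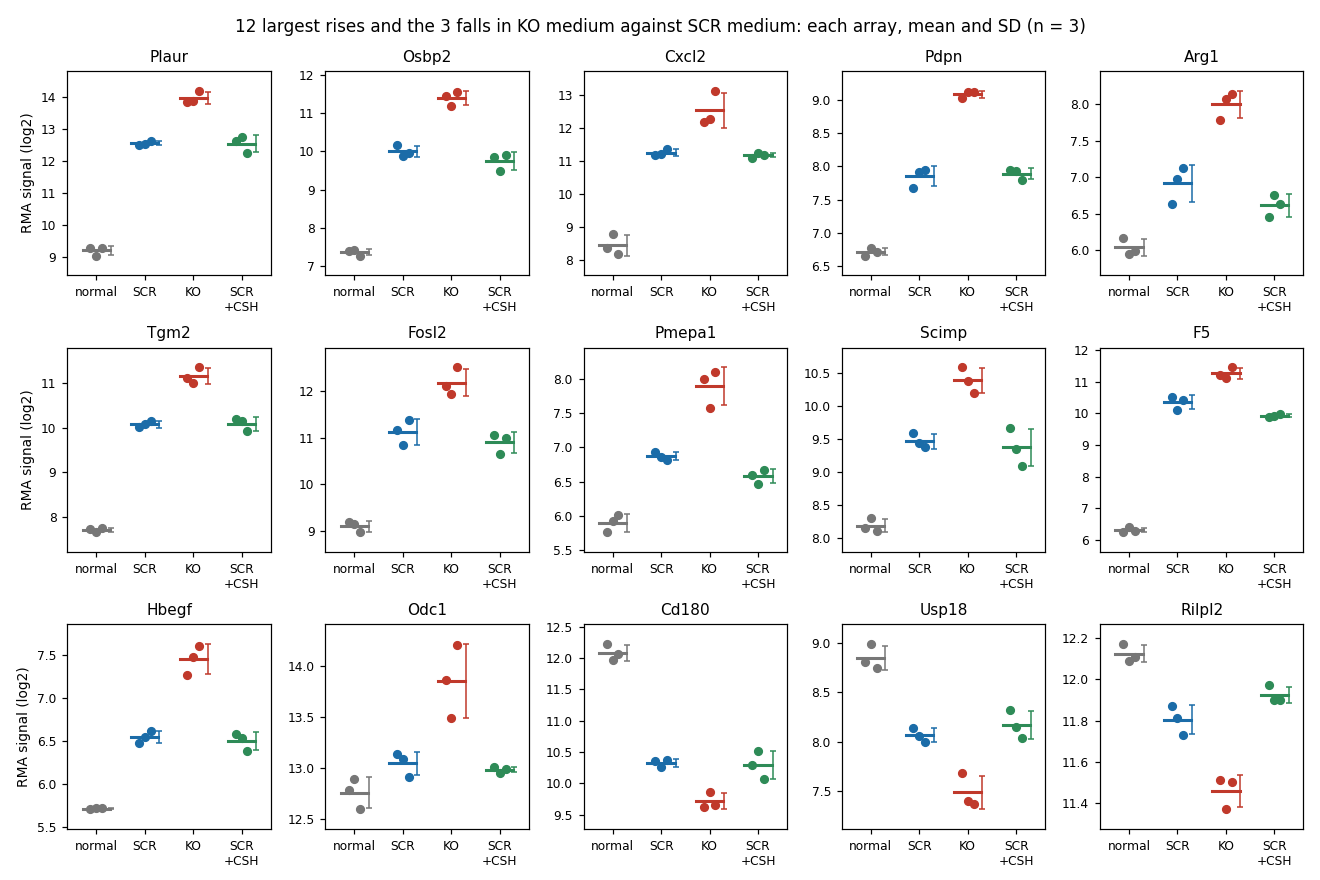
RMA signal (log2) of each array for the 12 largest named rises and the 3 falls in normal medium (grey), SCR medium (blue), KO medium (red) and SCR medium with CSH (green); bars are means, whiskers 1 SD (n = 3), and each panel has its own vertical scale. All KO points lie above all SCR points in the rises, as for Plaur (13.86 to 14.21 against 12.52 to 12.64), and below them in the falls.

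Genes that respond to cAMP and CREB formed another list with several rises. Of 14 tested, 5 rose (35.7%) and none fell, 13 were above 0, and the median was 0.40. Over all genes tested 0.254% rose, 48.5% were above 0 and the median was -0.003. The list was chosen with earlier results of these data known, so these counts are no test. The 5 rises were Arg1, Dusp1, Crem, Fosl2 and Vegfa, of which only Crem was on no other list. Without SCR replicate 3, KO replicate 1 or KO replicate 3, only Arg1 and Dusp1 passed, 2 of 14 (14.3%), and without SCR replicate 1 there were 3 rises. Dusp1, a phosphatase that switches off MAP kinases, measured 11.89, 11.82 and 11.78 in SCR medium and 12.37, 12.38 and 12.70 in KO medium, a rise of 0.65 (SE 0.09, adjusted p = 0.00622). Crem, a cAMP-responsive transcription factor whose short form represses its own targets, rose from 7.64 ± 0.14 to 8.31 ± 0.15, by 0.66 (SE 0.10, adjusted p = 0.015). The Crem call was lost without SCR replicate 3 or 4 or KO replicate 1 or 3 (adjusted p up to 0.0929). Vegfa, the angiogenic growth factor, was 14.10 ± 0.13 in SCR medium and 14.49 ± 0.01 in KO medium and rose by 0.39 (SE 0.07, adjusted p = 0.0332, up to 0.147 with 1 array left out, lost without 8 of the 12). Pde4b, a cAMP phosphodiesterase, was the first gene past the threshold (0.40, adjusted p = 0.0524). Pde8a, another cAMP phosphodiesterase, which was on no list, rose by 0.52 (SE 0.07, adjusted p = 0.00565).

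Fosl2, an AP-1 subunit (chromosome 5, 32136472 to 32157840), measured 11.17, 10.83 and 11.37 in SCR medium and 12.10, 11.93 and 12.50 in KO medium. It rose by 1.05 (SE 0.16, adjusted p = 0.0165), and the call was lost without SCR replicate 1 or 3 or KO replicate 1 or 3 (adjusted p up to 0.0929). Of 13 tested AP-1 genes it was the only one that rose, and the median was 0.04. Fos, another AP-1 subunit, measured 7.33, 6.83 and 7.10 in SCR medium and 7.65, 7.48 and 9.58 in KO medium. Its difference was 1.15 (adjusted p = 0.596), with KO replicate 3 far above the other KO arrays. Dusp5, another MAP kinase phosphatase, read 6.93, 7.03 and 6.98 against 7.71, 7.64 and 9.63, also with KO replicate 3 highest (1.35, adjusted p = 0.323). The feedback list of MAP kinase signalling held 2 rises in 15 tested genes, Dusp1 and Dusp16 (0.44, SE 0.07, adjusted p = 0.0268, up to 0.128), with a median of 0.09. Among 21 early response genes none passed and the median was 0.19, with Btg1 at 0.57 (adjusted p = 0.0951), Myc at 0.41 (adjusted p = 0.141), Klf6 at 0.40 and Rgs1 at 0.63.

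The sequence just before the RefSeq start of 3 of these genes is printed because its letters can be set beside the lists above. Motifs were searched on both strands in the stretch from 250 bases before to 50 after each start, for 35 of the 46 rises that the RefSeq table of GRCm38.p6 held. The AP-1 motif TGANTCA was found at 8 of the 35 genes (22.9%), against 6.69% of the 10447 tested genes in the table and 8.97% of all 27025 genes in it, where a gene counts if any of its promoters matches. Per promoter the shares were 19.1% of the 47 promoters of these genes and 7.81% of all promoters. Ctla2a and Ctla2b, close copies of each other, were 2 of the 8. The CRE motif TGACGTCA was found at 1 of 35 (2.86%), against 3.32% of tested genes and 2.03% of all genes. The motif of amino acid response elements, TGATGNAA, was found at 0 of 35, against 3.31% and 4.51%. The STAT motif TTCNNNGAA was found at 8 of 35 (22.9%), against 8.57% and 9.55%. A match is a description of letters and not a bound site. The start used for Plaur lies inside the gene span given above and not at its edge. Capitals mark the AP-1 motif in the promoters of Plaur (chr7:24462233-24462482, plus strand, at -69) and Lif (chr11:4257318-4257567, plus strand, at -228), and the CRE in that of Dusp1 (chr17:26508473-26508722, minus strand, at -143), each 250 bases, 5′ to 3′, up to the last base before the start.
Plaur: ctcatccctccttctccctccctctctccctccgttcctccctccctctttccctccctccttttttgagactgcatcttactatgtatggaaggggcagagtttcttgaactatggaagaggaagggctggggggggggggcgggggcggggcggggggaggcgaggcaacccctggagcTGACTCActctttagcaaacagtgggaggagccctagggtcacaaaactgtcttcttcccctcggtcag
Lif: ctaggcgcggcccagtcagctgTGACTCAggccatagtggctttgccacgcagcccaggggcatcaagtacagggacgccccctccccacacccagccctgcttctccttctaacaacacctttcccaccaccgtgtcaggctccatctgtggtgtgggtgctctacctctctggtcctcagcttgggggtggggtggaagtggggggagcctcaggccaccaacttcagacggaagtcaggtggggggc
Dusp1: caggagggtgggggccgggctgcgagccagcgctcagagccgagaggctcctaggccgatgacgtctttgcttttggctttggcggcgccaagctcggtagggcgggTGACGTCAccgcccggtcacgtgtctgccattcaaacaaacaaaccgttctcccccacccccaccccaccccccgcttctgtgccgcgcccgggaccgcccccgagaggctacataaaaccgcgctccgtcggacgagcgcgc

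Pmepa1, which TGF-beta induces and which restrains SMAD signalling (chromosome 2, 173224458 to 173276731), measured 6.94, 6.86 and 6.82 in SCR medium and 8.0, 7.58 and 8.10 in KO medium. It rose by 1.02 (SE 0.12, adjusted p = 0.00292), with no overlap. With Tgm2 it made 2 rises in 22 tested genes of the TGF-beta list, with none lower and a median of 0.08. Smurf1 (0.32) and Tgif1 (0.21) did not pass. In the matrix, protease and angiogenesis list, Hbegf and Vegfa rose among 20 tested and the median was 0.02. Adam8, a membrane protease, differed by 0.49 (adjusted p = 0.0918) and Mmp9 by 0.19 (adjusted p = 0.862). Hpse, heparanase, was lower by 0.67 without passing (adjusted p = 0.113), at 11.38, 11.25 and 11.51 in SCR medium and 10.81, 10.90 and 10.43 in KO medium.

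Scimp, a membrane adaptor of Toll-like receptor signalling, measured 9.60, 9.44 and 9.38 in SCR medium and 10.59, 10.39 and 10.20 in KO medium. It rose by 0.92 (SE 0.13, adjusted p = 0.0106), and the call was lost without SCR replicate 3 or 4 or KO replicate 1 (adjusted p up to 0.0762). Cd180, a Toll-like receptor relative that dampens the response to endotoxin, measured 10.36, 10.26 and 10.38 in SCR medium and 9.63, 9.87 and 9.66 in KO medium. It fell by 0.61 on the log2 scale (SE 0.11, adjusted p = 0.0323), and all KO arrays lay below all SCR arrays. Without any 1 of 7 arrays the Cd180 call was lost (adjusted p up to 0.168): normal replicate 4, all SCR arrays, KO replicates 1 and 3 and CSH replicate 1. Of 23 tested Toll-like receptor genes, these were the 1 rise and the 1 fall, and the median was -0.03. Cd14, which hands endotoxin to Toll-like receptor 4, differed by 0.47 (adjusted p = 0.12).

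Usp18, which removes the ubiquitin-like ISG15 and restrains interferon signalling, measured 8.14, 8.06 and 8.0 in SCR medium and 7.68, 7.40 and 7.37 in KO medium. It fell by 0.58 on the log2 scale (SE 0.10, adjusted p = 0.0263), with groups apart. The call was lost without any 1 of the SCR arrays or KO replicates 2 or 3 (adjusted p up to 0.138). It was the only one of 36 tested interferon-stimulated genes that passed, though 28 were below 0, with a median of -0.07. Among them Dtx3l was lower by 0.21, Ifit1 by 0.28 and Lgals3bp by 0.21, with adjusted p of 0.513, 0.812 and 0.856. In the class I antigen presentation list none of 19 passed and 16 were below 0 (median -0.07), with Psmb10 at -0.30, Psmb9 at -0.22 and H2-M3 at 0.28 (adjusted p = 0.0886). Over all genes tested 48.5% were above 0 and the median was -0.003, and neither the interferon nor the class I list was tested as a whole. Rilpl2, a RILP-like protein, was the third fall: 11.87, 11.81 and 11.73 in SCR medium and 11.51, 11.37 and 11.50 in KO medium, a difference of -0.34 (SE 0.06, adjusted p = 0.0341). Its arrays did not overlap, but the call was lost without any 1 of the 12 arrays (adjusted p 0.0515 to 0.151). The calls of Cd180, Usp18 and Rilpl2 were also lost with each array centred on its median, where 34 genes were called and all were higher, and without a filter on low values, where 33 were called and all were higher.

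Cd36, a scavenger receptor and fatty acid transporter, rose from 9.23 ± 0.13 to 9.82 ± 0.16 (0.58, SE 0.10, adjusted p = 0.0323, up to 0.178 with 1 array left out, lost without 9 of the 12). It was the 1 rise among 24 fatty acid genes (median -0.03). Lpl, lipoprotein lipase, was lower by 0.58 (adjusted p = 0.135), at 8.12, 8.10 and 8.02 against 7.56, 7.53 and 7.41, and Hilpda, a lipid droplet protein, was higher by 0.43 (adjusted p = 0.0951). Ddit4, an inhibitor of the growth kinase complex mTORC1, rose by 0.61 (SE 0.10, adjusted p = 0.0263, up to 0.136). It was on the hypoxia list, where with Vegfa it made 2 rises of 31 (median 0.01), and on the ATF4 list. Of 40 tested ATF4 targets it alone passed, while 39 were above 0 and the median was 0.11, with the cystine transporter Slc7a11 at 0.43 (adjusted p = 0.129), Slc38a2 at 0.30 and Ppp1r15a at 0.53. Over all genes tested 48.5% were above 0 and the median was -0.003, and the ATF4 list as a whole was not tested.

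Several rises were of other kinds. Lims2, a focal adhesion protein, rose by 0.62 (SE 0.08, adjusted p = 0.00622) from 10.75 ± 0.03 to 11.37 ± 0.10. Plekhn1 rose by 0.59 (SE 0.07, adjusted p = 0.0037), Pmp22, a myelin membrane protein, by 0.45 (SE 0.06, adjusted p = 0.00622). Its relative Emp1 rose by 0.50 (adjusted p = 0.0102, up to 0.0641 with 1 array left out). Vdr, the vitamin D receptor, rose by 0.49 (adjusted p up to 0.0583), Dab2, an endocytic adaptor, by 0.37 (up to 0.0583), Dock4, a Rac activator, by 0.50 (up to 0.0727), and Bcar3, an adaptor of integrin signalling, by 0.60 (up to 0.0929). Tnfrsf9, a costimulatory receptor of the TNF family, rose by 0.61 (up to 0.104) and Kpna4, which imports proteins into the nucleus, by 0.42 (up to 0.102). Stk40 rose by 0.61 (up to 0.193), Acsbg1, an acyl-CoA synthetase, by 0.45 (up to 0.139), the adaptor Sh2b2 by 0.46 (up to 0.147), Rasal2, which switches off Ras, by 0.34 (up to 0.128), Peak1, a pseudokinase, by 0.33 (up to 0.191) and Blcap by 0.30 (up to 0.181). Readings for Ctla2a (0.72, up to 0.136), Ctla2b (0.67, up to 0.111), Cstdc4 (0.77, up to 0.132) and the pseudogene Hmga2-ps1 (0.61, up to 0.0777) are uncertain, since probes can share near-identical copies. Apart from Lims2, Plekhn1 and Pmp22, each gene named in this group lost its call without 1 or more single KO or SCR arrays, and Stk40, Sh2b2, Rasal2, Peak1 and Blcap also lost theirs without single normal or CSH arrays. Of the 49 called genes 3 were predicted genes or clones and are not named.

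**Figure D3:**
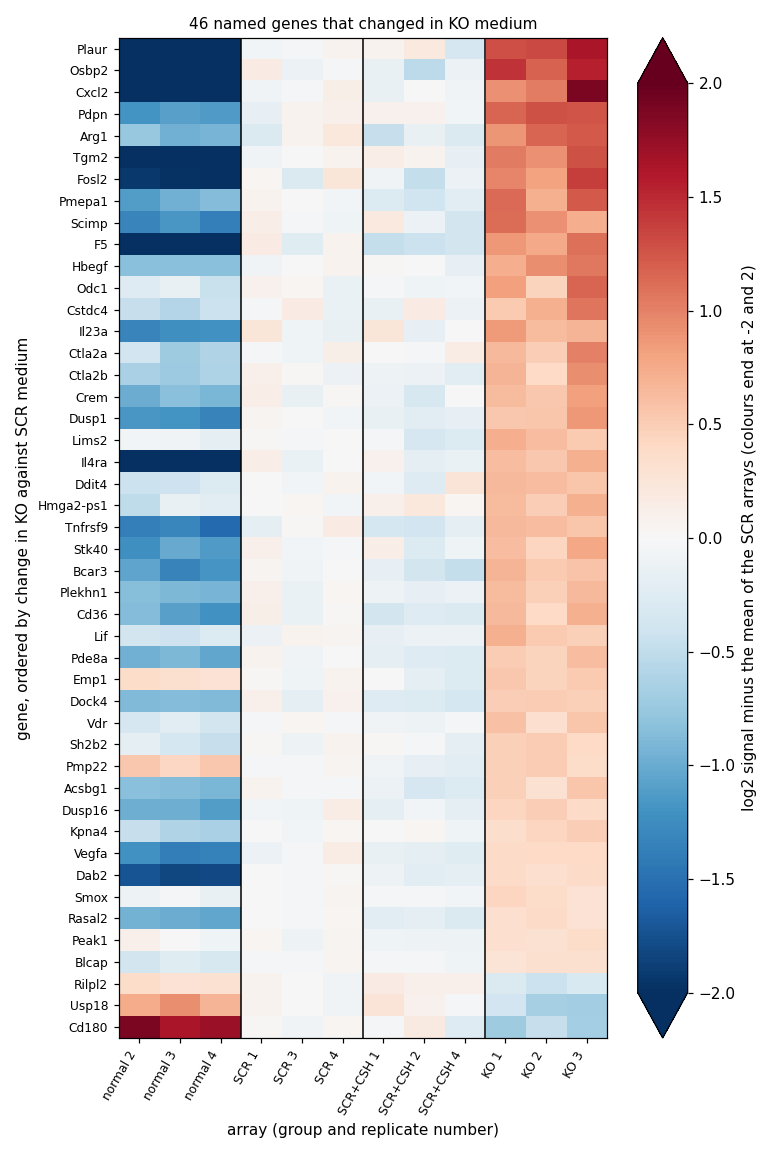
Colour gives the log2 signal of each array minus the mean of the 3 SCR arrays for the 46 named genes that changed (43 rises and 3 falls), ordered by their change, with columns grouped as normal, SCR, SCR with CSH and KO medium. KO columns are red for the rises and blue for the falls, and normal medium columns are dark blue for Plaur, Osbp2 and F5.

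Values in the other media were set side by side for the leading genes. The comparison with normal medium shares KO arrays with that against SCR medium, and the SCR arrays enter both, so no overlap was taken as a result. Plaur was 9.28, 9.04 and 9.29 in normal medium, so KO medium stood 4.78 above normal medium and SCR medium 3.37 above it. Osbp2 was 7.36 in normal medium (KO 4.04 and SCR 2.65 above it), F5 6.31 (4.95 and 4.04) and Tgm2 7.71 (3.46 and 2.38). Arg1 was 6.03 in normal medium, with KO 1.97 and SCR 0.88 above it. Pmp22 was instead lower in SCR medium than in normal medium by 0.50, and KO medium differed from normal medium by -0.04 (adjusted p = 0.628). Emp1 was lower in SCR medium by 0.32 and differed in KO medium by 0.18 (adjusted p = 0.0679). Cd180 was 12.08 in normal medium, 2.36 above KO medium, and Usp18 was 8.85, 1.37 above KO medium. In KO medium 7080 genes (39.1%) differed from normal medium, and in SCR medium 6370 (35.2%).

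SCR medium with CSH gave another group of arrays, which shares no array with the SCR group. The KO arrays are the same as in the comparison above. KO medium differs from this group by the knockout and by the lack of CSH, and the parts of the 2 cannot be told apart. It is therefore no repeat of the comparison with SCR medium. Against SCR medium, CSH medium differed by 0.04 for Pdpn, -0.02 for Plaur and -0.30 for Arg1 (limma adjusted p = 0.976, 0.992 and 0.781). Pdpn was 7.94, 7.93 and 7.80 there, 1.19 below KO medium (adjusted p = 2.03e-05). Plaur was 12.64, 12.76 and 12.24 (1.44 below, adjusted p = 0.000152), Arg1 6.45, 6.76 and 6.63 (1.39 below, adjusted p = 0.000195) and Cd180 10.30, 10.51 and 10.07 (0.57 above, adjusted p = 0.0186). Against this group 345 genes (1.9%) differed in KO medium, 219 higher and 126 lower (63.5% higher). With each array centred on its median, 120 were higher and 34 lower (77.9% higher).

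**Figure D4:**
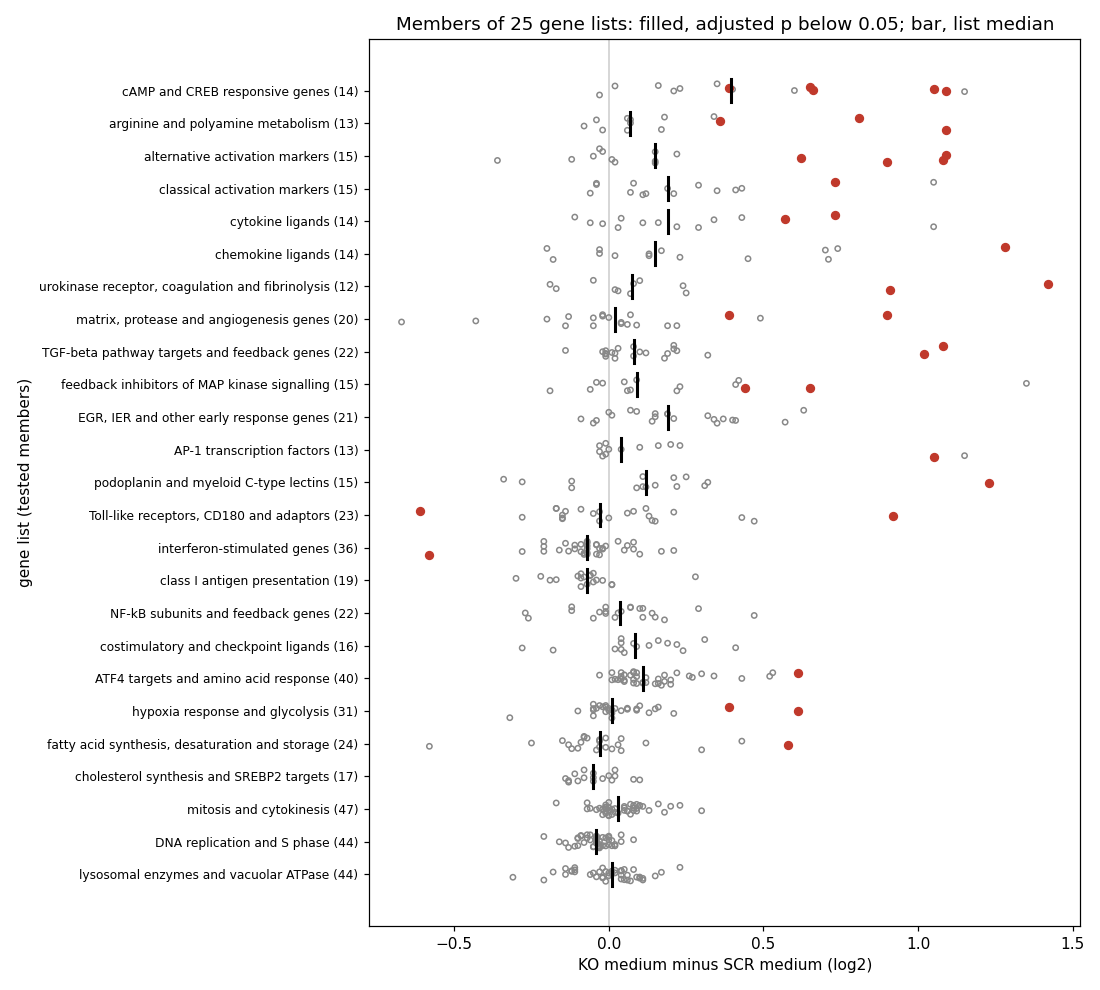
Each point is a tested member of a gene list, placed by its difference between KO and SCR medium (log2, horizontal), with the number tested beside the list name; filled points passed at adjusted p below 0.05 and bars mark list medians. The cAMP and CREB list has its median at 0.40, while the mitosis, replication and lysosome lists hold no filled point and have medians of 0.03, -0.04 and 0.01.

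Of 40 gene lists, 20 held at least 1 called gene and 20 held none, and 24 of the 49 called genes were on a list. Lists with none included mitosis (47 tested), DNA replication (44), lysosomal enzymes (44), oxidative phosphorylation (49), the unfolded protein response (23), NRF2 targets (24), cholesterol synthesis (17), NF-kB genes (22), and annexins and formyl peptide receptors (9). Their medians lay between -0.05 and 0.04, beside -0.003 for all genes tested. In the annexin and formyl peptide receptor list the 9 tested members were all annexins, and no formyl peptide receptor was tested. Anxa1, the annexin whose receptor CSH is said to block, was 10.63 ± 0.07 in SCR medium and 10.48 ± 0.05 in KO medium (adjusted p = 0.837). None of the 27 tested JmjC genes passed, with Kdm6b at 0.28 (adjusted p = 0.0886). The other cytokine receptor genes did not pass (22 tested, Il4ra the 1 rise, median 0.01). None of the 18 tested macrophage markers passed (median -0.03), and their summed level was 19.54 to 19.63 in SCR medium and 19.59 to 19.65 in KO medium. Of 12 neutrophil markers 5 were tested and none passed, with a summed level of 9.26 to 9.41 in SCR medium and 9.56 to 9.73 in KO medium. S100a8 differed by 1.02 (adjusted p = 0.0937), at 7.13, 7.27 and 7.44 against 8.08, 8.5 and 8.31, while the other 4 were at -0.14 (Ly6g), -0.04 (Camp), 0.10 (S100a9) and 0.12 (Cxcr2). Elane and Mpo, which define neutrophil granules, lay below the filter. Summed levels were lower in KO medium, without overlap, for dendritic cell markers (12.73 to 12.93 against 12.59 to 12.72, 7 tested), endothelial markers (9.59 to 9.66 against 9.45 to 9.56, 3 tested) and osteoclast markers (12.68 to 12.81 against 12.51 to 12.65, 9 tested). They overlapped for mammary epithelial markers (10.03 to 10.11 against 10.05 to 10.19, 8 tested), T and B cell markers (8.63 to 8.81 against 8.66 to 8.70, 3 tested) and fibroblast markers (8.26 to 8.39 against 8.30 to 8.32, 0 tested). Each sum covered all members with a named probe set, also those below the filter, so bright genes weigh most. There were 13 such members in the dendritic, 10 in the endothelial and 12 in the osteoclast list. Arrays of the KO and SCR groups also did not overlap for 9.37% of all genes tested. No member of these marker lists passed, and the part of any of them in the results was not tested. Itgax, an integrin of dendritic cells and macrophages, differed by -0.75 (adjusted p = 0.36).

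The 10 genes next in p were Pde4b, Clic1, Rabgef1, Camk1d, Tspan10, Nus1, Cd93, Ccl2, Cd72 and Trp53bp2, with adjusted p from 0.0524 to 0.0847. Cd93, a membrane C-type lectin, stood at 14.02, 13.96 and 14.22 in SCR medium and 14.51, 14.49 and 14.57 in KO medium (0.46, adjusted p = 0.0793). Cd72, an inhibitory receptor, was 8.91 in SCR medium and 8.46 in KO medium, and 11.92 in normal medium. Tspan10 differed by -0.39 and Clic1, a chloride channel protein, by 0.28.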

How the data were processed

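RAW264.7 RNA was hybridised to 12 Affymetrix arrays, 4 groups of 3. The deposited values are log2 signals that the authors made with RMA in Affymetrix Expression Console on mm10, per the submitters' processing notes; no version is given in the sources used here. RMA aligns the arrays to each other, so a shift in total RNA would not show, and it shrinks differences of dim genes. Of 65528 probe sets 31026 had 1 gene symbol in the platform table after updating through Entrez numbers and the RefSeq table of GRCm38.p6 (24506 of 25081 numbered probe sets matched), 1470 had several and 33032 none. The probe set with the highest mean stood for each of 30472 genes, of which 439 had several. Genes above the array median of all probe sets in at least 3 arrays were tested (18122).

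The fit used limma 3.58.1 under R 4.3.3, with 1 term for group across the 12 arrays and moderated variances that follow intensity (lmFit, eBayes; 8 residual degrees of freedom), with Benjamini-Hochberg adjustment over all genes tested. Samples were grouped by their titles. The tables were made in Python 3.11.15 with pandas 2.3.3 and numpy 2.4.6, and drawn with matplotlib 3.10.9; the fit was tested on simulated data. The members and lists were chosen with earlier results of these data known, so no list was tested. Named genes are all called genes other than predicted genes, clones and small RNAs, the 10 next in p, 18 genes fixed for every group and from each list described up to 4 members of smallest p; per-array values are given for the 12 largest rises, all falls and some further genes chosen after their values were seen. Alternatives were other filters, scalings, weights, probe set choices, blocks, thresholds and arrays left out.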

Additional observations from a re-analysis of the deposited data

Results flagged for a closer look

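Probe sets that carry no single named gene were outside the gene comparison. When all 34165 probe sets above the filter were fitted together, 32 were called between KO and SCR medium, all higher in KO medium, and 5 of these were among the 15724 with no single named gene. The largest of the 5 went from 9.65 in SCR medium to 10.93 in KO medium, a log2 change of 1.28 (limma adjusted p = 0.01), and the others rose by 0.91, 0.83, 0.73 and 0.47. This fit was added after seeing the data.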

How the results depend on the processing

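The 49 calls between KO and SCR medium became 376 (220 higher and 156 lower) with array weights, 22 with the arrays of the comparison alone and 19 at an adjusted p below 0.01, and 20 to 50 when 1 array was left out. Array weights gave SCR replicate 4 a weight of 6.14 and its estimation stopped before reaching its tolerance. Of the 49 genes, 49 kept their call with array weights, without a trend, with quantile normalization and with a random replicate block, 34 with median centring, 33 without a filter, 47 with a stricter filter (which did not test the other 2), 32 with the replicate block and 18 with the arrays of the comparison alone; the cause was not tested. With the replicate block 39 genes were called, 30 higher and 9 lower, and the named calls lost were Fosl2 (adjusted p = 0.0518), Tnfrsf9, Kpna4, Smox, Ctla2a, Ctla2b, Cstdc4, Rasal2, Dusp16, Sh2b2, Cd36, Vegfa (0.117), Rilpl2, Blcap and Peak1. Over 12 pairs of arrays of different groups with the same number, deviations from the group means correlated at -0.07 to 0.30, above 0.1 in 5 pairs. Pairs with different numbers ran from -0.23 to 0.21, and the 2 highest values of all were for same-number pairs. The main fit had no term for the number. With the random replicate block the estimated consensus correlation of samples with the same number was 0.0883. Whether such samples share more than the number was not tested. KO with SCR gave 0.14 (replicate 1) and -0.07 (replicate 3), and KO with CSH 0.21 (replicate 1) and 0.25 (replicate 2). The 345 calls between KO medium and SCR medium with CSH became 210 without a filter, 574 with quantile normalization, 154 with median centring, 653 with array weights, 214 with the replicate block, 162 with the arrays alone, 631 at an adjusted p below 0.1 and 80 below 0.01, and 107 to 373 with 1 array left out. Uncalled genes changed sign: Tnf to -0.05 with array weights and -0.01 to 0.2 with 1 array left out, Nos2 to -0.08 with array weights, -0.02 with the replicate block and -0.08 to 0.21 with 1 array left out, Cd86 to -0.02 to 0.2 with 1 array left out, and Jmjd6 to -0.02 with the replicate block and -0.08 to 0.21 with 1 array left out. List medians moved by more than the spread between arrays in 24 of 405 comparisons. Signals near background, as for Il1b, Il10, Mrc1 and Chil3, limit what these arrays can show.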
